A study of Mus musculus with 68 samples.

Results

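The 38 genes described here encode the machinery that holds, moves and condenses chromosomes in mitosis: 10 of the inner kinetochore, 10 of the outer kinetochore and its microtubule attachment, 7 of the spindle checkpoint, 5 of the chromosomal passenger complex and cytokinesis, and 6 of condensin. They were given as a list of names, not picked by a value in this report. All 38 were found among the 18194 genes that a probe set of the array names alone, and all 38 were among the 12560 genes that passed the filter on low values. Each gene is represented by the probe set with its highest mean over all 68 arrays. The samples were mammary tumours that arose spontaneously in mice carrying MMTV-PyMT, a transgene in which a mouse mammary tumour virus promoter drives the polyoma middle T oncogene mainly in mammary epithelium. The labels give 1 group: every animal came from a cross of NZB with PyMT mice, bred back to FVB, and all carried the transgene. There is no untreated or tumour-free group, and the age of the animals and whether tumours were pooled are not given in the sources used here. RNA of each tumour was hybridised to an Affymetrix mouse array, and values are on a log2 scale. The members are described over the 56 arrays, from 56 animals, whose 18S ribosomal RNA control probe sets had a mean below 8 (observed 5.03 to 6.84). The other 12 arrays had means of 8.97 to 10.16 and are described at the end.

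The kinetochore is a protein assembly built on the centromere of each chromosome. Its inner layer recognises chromatin that contains the histone variant CENP-A, its outer layer binds spindle microtubules, and the checkpoint proteins recruited there delay anaphase until every chromosome is attached. The passenger complex corrects wrong attachments, and condensin compacts the chromosomes before they part. Transcripts of most of these genes accumulate in late S, G2 and M phase, so in a tissue their level moves with the share of dividing cells.

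The tissue labels were checked first. The luminal keratins Krt8 and Krt18 had means of 12.43 ± 0.20 and 12.40 ± 0.22 (log2, SD, n = 56), and the epithelial adhesion gene Epcam 11.82 ± 0.27. Marker genes of other tissue were measured too. The mean of 6 fibroblast genes ran over the arrays from 9.001 (median 10.84) to 11.74. That of 3 adipocyte genes ran from 5.28 (median 8.51) to 10.91, and that of 5 skeletal muscle genes from 3.83 (median 9.44) to 12.47. Apart from the labels, the 56 arrays fell into 3 array sets, defined by groups of probe sets on many chromosomes whose values split the arrays in the same way. Array set 1 held 39 arrays, array set 3 held 9, of which 8 have titles ending in R, and array set 4 held 8, all with animal numbers above 4000. Array set 2 is the 12 arrays left out. What the letter R and the numbers stand for is not stated in the labels. No label names these sets, and results that move with them are given with and without them.

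Promoters are shown first because the members moved together, and because late cell cycle genes are known for 2 short promoter elements, the CHR (TTTGAA), bound by the DREAM and B-MYB complexes, and the CCAAT box, bound by NF-Y. RefSeq promoter windows (GRCm38.p6, 250 bases before the start of transcription to 50 after it) were available for 32 of the 38 members. Spc24, Ska1, Zwilch, Aurkb, Incenp and Smc4 were not matched. TTTGAA was searched on both strands, as was the CCAAT box, and likewise the E2F-type motif GGCGGGAA and a second E2F-type motif, TTTGGCGC. Complete matches of different motifs cannot lie inside each other, though they may share end bases. The printed sequences run from 250 bases before to 30 after the start, read 5′ to 3′ on the strand of the gene, with motif matches in capitals. ATTGG is CCAAT on the opposite strand. Ncapg, Cenpa and Racgap1 are shown as members that followed the others closely and hold both elements, and Ska2 and Cenpt as 2 of the 5 members with r below 0.6 (defined below), of which all but Bub3 lack TTTGAA. These 5 were chosen after their values were seen.
Ncapg (chr5:45669675-45669954, plus strand): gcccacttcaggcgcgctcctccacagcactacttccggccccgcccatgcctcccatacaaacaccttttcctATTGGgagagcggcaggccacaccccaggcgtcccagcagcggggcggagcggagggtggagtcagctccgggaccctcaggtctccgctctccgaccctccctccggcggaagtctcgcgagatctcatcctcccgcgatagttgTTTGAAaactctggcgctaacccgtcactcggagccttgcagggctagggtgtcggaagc
Cenpa (chr5:30666636-30666915, plus strand): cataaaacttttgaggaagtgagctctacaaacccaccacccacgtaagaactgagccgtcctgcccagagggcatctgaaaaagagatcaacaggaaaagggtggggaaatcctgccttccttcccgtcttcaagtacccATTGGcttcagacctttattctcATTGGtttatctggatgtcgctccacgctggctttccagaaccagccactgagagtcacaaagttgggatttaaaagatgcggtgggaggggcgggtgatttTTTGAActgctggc
Racgap1 (chr15:99651627-99651906, minus strand): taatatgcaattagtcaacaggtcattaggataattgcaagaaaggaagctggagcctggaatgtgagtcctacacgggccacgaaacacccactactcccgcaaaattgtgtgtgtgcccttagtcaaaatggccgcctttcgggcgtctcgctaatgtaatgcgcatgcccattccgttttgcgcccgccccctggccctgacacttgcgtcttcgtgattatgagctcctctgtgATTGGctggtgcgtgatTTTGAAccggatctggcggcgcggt
Ska2 (chr11:87109011-87109290, plus strand): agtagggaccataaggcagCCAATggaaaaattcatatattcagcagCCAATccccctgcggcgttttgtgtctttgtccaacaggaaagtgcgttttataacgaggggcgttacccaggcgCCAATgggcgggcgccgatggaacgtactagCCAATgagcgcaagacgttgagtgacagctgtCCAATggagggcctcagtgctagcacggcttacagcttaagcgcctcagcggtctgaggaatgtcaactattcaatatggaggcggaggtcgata
Cenpt (chr8:105851979-105852258, minus strand): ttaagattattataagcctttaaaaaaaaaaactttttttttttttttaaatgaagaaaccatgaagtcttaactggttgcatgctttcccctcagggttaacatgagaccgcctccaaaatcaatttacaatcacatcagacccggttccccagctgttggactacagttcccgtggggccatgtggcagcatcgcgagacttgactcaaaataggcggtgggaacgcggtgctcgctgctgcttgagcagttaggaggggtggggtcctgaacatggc
The match to TTTGAA began at position -30 from the start of Ncapg, 17 of Cenpa and 6 of Racgap1. The Ska2 window holds CCAAT 5 times, and the Cenpt window holds none of the 4 motifs. An empty window was not particular to members with low r. Those of Mad2l1 (r = 0.951), Ncaph (0.908), Nuf2 (0.857), Cenpp (0.841) and Birc5 (0.446), not printed, hold none either.

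TTTGAA occurred in the windows of 17 of the 32 members (53.1%) and in those of 20.2% of 27025 genes. CCAAT occurred in 23 members (71.9%) against 41.1% of genes, and both together in 14 (43.8%) against 7.97%. Matches to TTTGAA that began within 50 bases of the start, a distance chosen after the matches were seen, were found in 15 members (46.9%) and 5.72% of genes. GGCGGGAA was found in 3 members (9.38%) against 2.52% of genes, and TTTGGCGC in 2 (6.25%) against 0.585%. By how closely a member followed the others over the arrays (r, defined next), 8 of the 14 matched members with r of at least 0.9 held TTTGAA, as did 8 of 13 with r from 0.6 to 0.9 and 1 of 5 below 0.6, which was Bub3. CCAAT was held by 9 of 14, 11 of 13 and 3 of 5 in the same order. This split was chosen after the values were seen, and a link of either element with r was not tested. A match is a description of these letters and does not show that a factor binds, and a window without one says nothing about the factor.

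Most of the members moved together across tumours, and 5 followed the others less closely. Genes outside the list that moved with them as closely are given at the end. The median Pearson correlation of the 703 pairs of members was 0.722 over the 56 arrays (Spearman 0.679), 701 pairs lay above 0 and 235 reached at least 0.8, while the median over all pairs of the 12560 genes tested was 0.0098. The median for the members was 0.742 within array set 1 (n = 39), 0.841 within array set 3 (n = 9) and 0.871 within array set 4 (n = 8). These correlations are descriptions: all genes of an array share its RNA and its normalisation. For each member, r below is its correlation with the mean z-score of the other 37 over the 56 arrays. It had a median of 0.877 and was at least 0.9 for 15 members and below 0.6 for 5 (Bub3, Ska2, Cenpt, Birc5 and Zwint). In bulk tissue, fewer dividing cells and less of a transcript in each of them cannot be told apart.

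**Figure D1:**
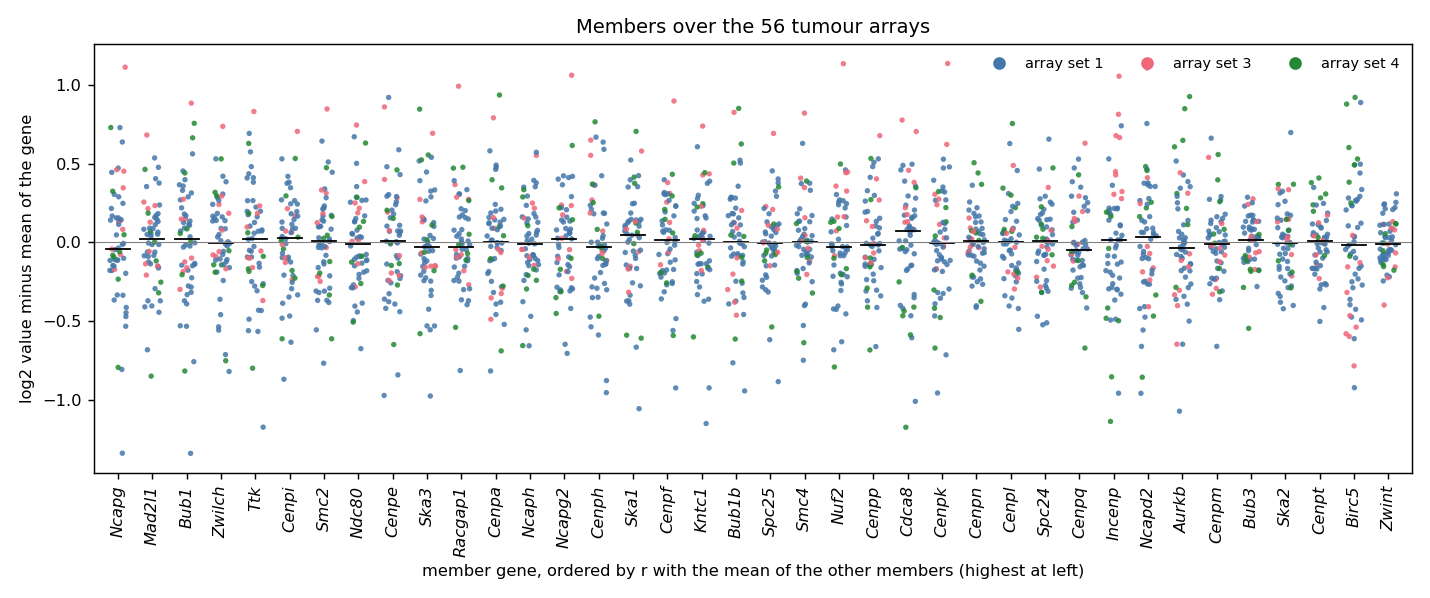
Each point is 1 of the 56 tumour arrays, coloured by array set; the vertical axis is the log2 value minus the mean of that gene, the black bars are medians, and members are ordered from the highest r with the other members (Ncapg, 0.959) to the lowest (Zwint, 0.395). Zwint, Bub3 and Cenpt spread little, while Ncapg and Bub1 reach more than 1 log2 unit below their mean in 1 tumour.

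The members also varied more between tumours than most genes. Their median SD was 0.31 log2 units against 0.23 over all genes tested, and 34 of 38 lay above that gene median. The SD ran from 0.15 for Zwint to 0.42 for Incenp. Both ends depended on the probe set: the next brightest one had 0.21 for Zwint and 0.33 for Incenp. Within array set 1 the SD of Incenp was 0.30 and that of Zwint 0.14. The median SD in array set 1 was 0.28 for the members and 0.19 for all genes tested. Among the members, Cenpq had the values nearest to 2 separate levels (Ashman's D 2.95, the distance between 2 clusters over their spread), and 20.5% of genes tested had at least that D.

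In the inner kinetochore, 3 of the 10 genes followed the rest with r of at least 0.9. Cenpi, of the CENP-H/I/K complex, ranged over the arrays from 6.16 (median 7.05) to 7.73, with r = 0.937. Cenpa, the centromeric histone H3 variant itself, ranged from 7.59 (median 8.42) to 9.35, with r = 0.917. Cenph ranged from 5.97 (median 6.90) to 7.69, with r = 0.904, and Cenpk, its direct partner, from 6.41 (median 7.36) to 8.50, with r = 0.836. Cenpp, Cenpn, Cenpl, Cenpq and Cenpm, all subunits of the constitutive centromere network, followed with r of 0.841, 0.80, 0.764, 0.742 and 0.662. Cenpt, which links centromeric DNA to the NDC80 complex, stood apart at r = 0.460, and at 0.475 within array set 1. It ranged only from 7.43 (median 7.94) to 8.34. The median correlation among the 10 inner kinetochore genes was 0.638.

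In the outer kinetochore, Ndc80, the microtubule-binding subunit after which its complex is named, ranged from 6.15 (median 6.82) to 7.57, with r = 0.930. Its complex partner Nuf2 correlated with it at 0.815, and Spc25 at 0.822, while Spc24 and Spc25, which form the other end of the complex, correlated with each other at 0.668. Cenpe, the kinetochore motor that carries chromosomes to the spindle equator, had r = 0.928 and ranged from 6.54 (median 7.52) to 8.44. Cenpf, a large protein of the fibrous outer corona, had r = 0.899. The SKA complex, which couples kinetochores to depolymerising microtubules, did not move as a unit. Ska1 and Ska3 correlated at 0.887, but Ska2 correlated with Ska1 at 0.413 and with Ska3 at 0.566. Ska2 ranged from 7.35 (median 7.77) to 8.47, and its second probe set gave r = 0.468 with the members where the first gave 0.515.

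Zwint, which bridges the outer kinetochore to the checkpoint's RZZ complex, had the lowest r of the 38, 0.395, and the smallest range, from 9.16 (median 9.55) to 9.86. This depended on the probe set: 3 other Zwint probe sets had r of 0.699, 0.645 and 0.623 over the same arrays. Of the remaining 3, dimmer than these, 2 passed the filter with r of 0.378 and 0.186, and 1 did not pass, with 0.0093. Zwint and Ska2 formed the pair of members with the lowest correlation, -0.148 over the 56 arrays and -0.310 within array set 1.

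The checkpoint genes were among the most alike, with a median correlation of 0.844 among the 7. Mad2l1, the checkpoint effector that binds and inhibits Cdc20, ranged from 8.20 (median 9.07) to 9.73, with r = 0.951. The kinase Bub1 had r = 0.95 and one of the widest spans, from 6.89 (median 8.25) to 9.12. Zwilch and Kntc1, of the RZZ complex that brings dynein and Mad1 to kinetochores, had r of 0.942 and 0.897. Ttk, the kinase Mps1 that starts checkpoint signalling, had r = 0.938 and, with Cenpi, formed the most alike pair of all 703 (0.929). Bub1b, the kinase-like subunit BubR1 of the mitotic checkpoint complex, had r = 0.882.

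Bub3 was the exception in the checkpoint group. It binds both Bub1 and Bub1b, yet it correlated with them at 0.554 and 0.547. Its values lay between 10.05 (median 10.62) and 10.89, an SD of 0.16, and its r with the members was 0.589. In array set 1 its correlations with Bub1 and Bub1b were 0.664 and 0.711.

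**Figure D2:**
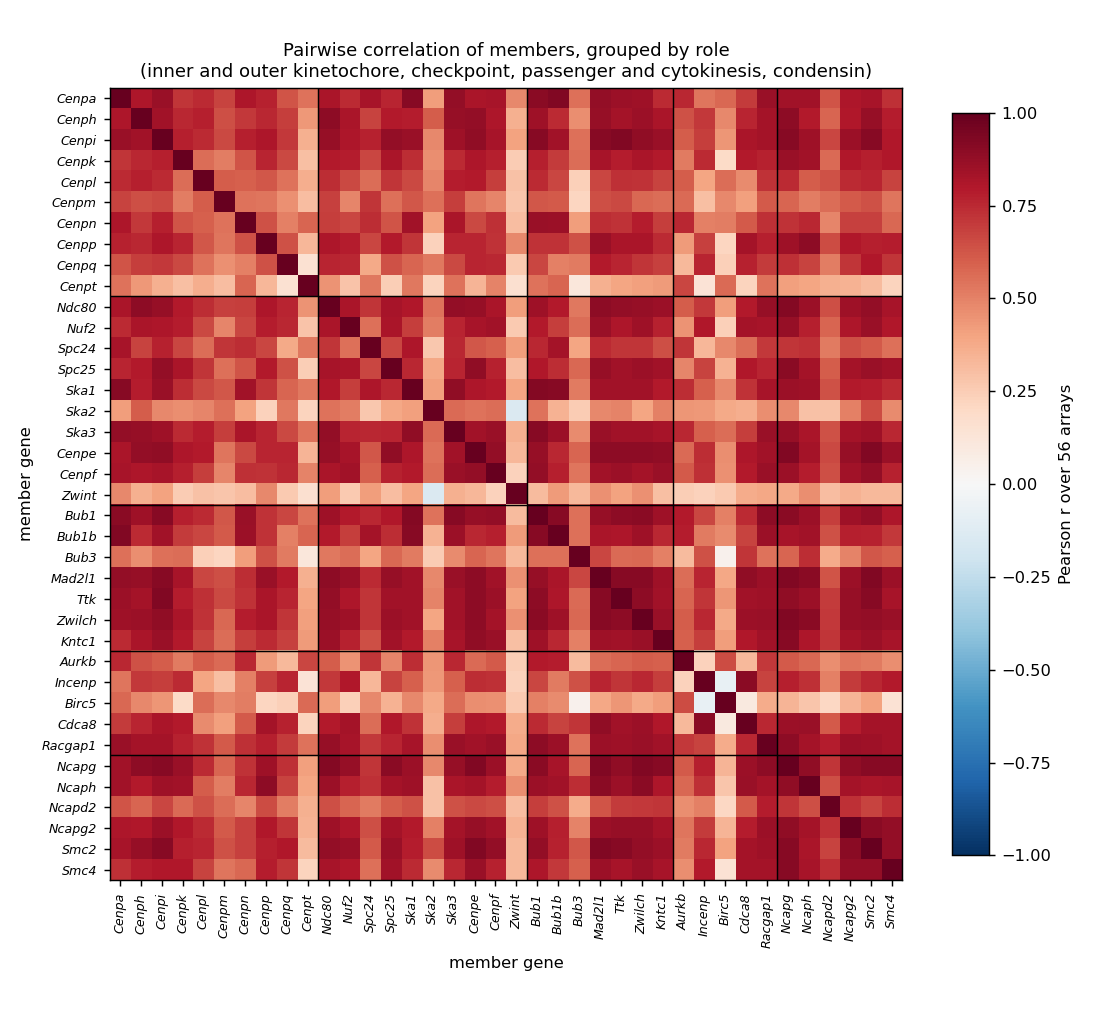
Pearson correlation over 56 arrays for every pair of members, with rows and columns in the same order and black lines between the role groups; the colour scale runs from -1 (blue) to 1 (red). Pale bands mark Cenpt, Ska2, Zwint, Bub3 and Birc5, the members with r below 0.6, against a field in which 701 of 703 pairs lie above 0.

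The passenger complex did not move as a unit over the 56 arrays, and the values differed by probe set and by array set. Aurkb is its kinase, Incenp its scaffold, and Birc5 (survivin) and Cdca8 (borealin) place it at the centromere. Over the 56 arrays Incenp and Cdca8 correlated at 0.899 and Aurkb and Birc5 at 0.649, but Birc5 correlated with Incenp at -0.074 and with Cdca8 at 0.098. Within array set 1 these last correlations were 0.491 and 0.662, and within array set 4 (n = 8) they were 0.733 and 0.767. In array set 3 (n = 9) they were -0.061 and 0.0048. Birc5 had means of 9.02, 8.64 and 9.52 in array sets 1, 3 and 4, while Incenp had 9.28, 9.88 and 8.94. So the array sets that were high for one gene were low for the other.

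The unused probe sets of Incenp and Cdca8 that passed the filter, 2 of each gene, did not share that contrast. For Incenp, a second probe set had means of 7.73, 7.69 and 8.34 in array sets 1, 3 and 4, and correlated with the probe set used at 0.143 over the 56 arrays and at 0.599 in array set 1 alone. The other had 5.65, 5.49 and 5.84. Of 2 dimmer Incenp probe sets that did not pass, one had means of 4.84, 5.14 and 4.66, in the same order as the probe set used, and one had 4.12, 4.27 and 4.19. For Cdca8, the probe set used had means of 8.84, 9.18 and 8.47, a second one had 8.87, 8.90 and 9.10, and the other 7.52, 7.52 and 7.67. The Cdca8 probe set used has the highest mean over all 68 arrays, and over the 56 alone the rule would have taken the second one. With the second probe sets of Incenp and Cdca8, a choice made after the values were seen, the median correlation of the 4 genes was 0.714 in place of 0.279. In array set 1 alone it was 0.671 in place of 0.617. Birc5 has 1 probe set here, so its own array-set differences could not be compared with another.

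**Figure D3:**
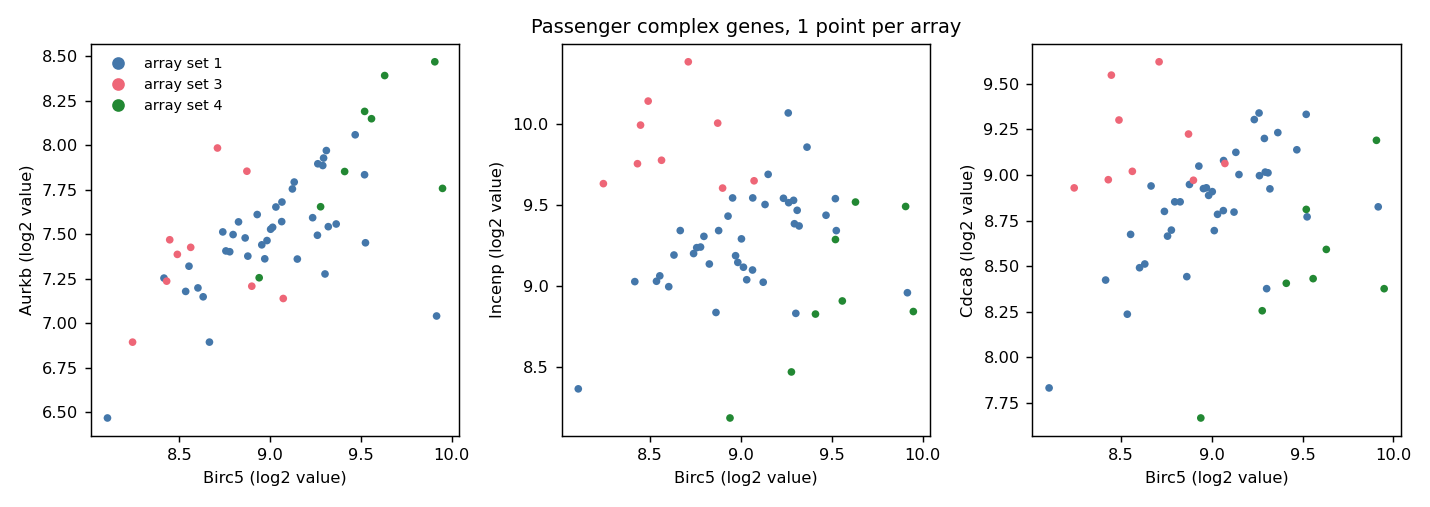
Log2 values of Aurkb, Incenp and Cdca8 (vertical axes) against Birc5 (horizontal axes), 1 point per array, coloured by array set. In the Incenp and Cdca8 panels array set 3 lies to the upper left and array set 4 to the lower right, and within array set 1 the points run from lower left to upper right (r = 0.491 and 0.662).

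Racgap1, the centralspindlin subunit that organises the cytokinetic furrow, followed the members closely. It ranged from 7.08 (median 7.86) to 8.88, with r = 0.924. Aurkb had r = 0.680 over the 56 arrays and 0.759 within array set 1. Birc5 had 0.446 and 0.706.

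Condensin genes had a median correlation of 0.830 among the 6. Ncapg, a HEAT-repeat subunit of condensin I, was the member most like the rest (r = 0.959) and ranged from 5.58 (median 6.88) to 8.03. Smc2 and Smc4, the ATPase pair at the core of both condensins, correlated with each other at 0.883. Smc2 ranged from 8.27 (median 9.05) to 9.89. Ncaph, the kleisin of condensin I, had r = 0.908 and Ncapg2, of condensin II, had 0.906. Ncapd2, the other HEAT-repeat subunit of condensin I, had the lowest r of the 6, 0.710, and correlated with Ncaph at 0.641 and with Ncapg at 0.712. Another probe set of Smc4 had means of 9.53, 7.60 and 8.93 in array sets 1, 3 and 4 and a correlation of -0.061 with the probe set used. A further one correlated with it at 0.846.

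The coupling shows in single tumours. The mean over the 38 members ranged from 7.09 (median 7.85) to 8.53. The tumour of animal 3289, in array set 1, had the lowest mean. It was the lowest of the 56 for 23 members and among the lowest 5 for 36. Animals 4958 and 3572 came next, at 7.28 and 7.35. The tumour of animal 3854, in array set 3, had the highest mean and was the highest of the 56 for 21 members. The cell type marker lists of this tumour stood apart too: its mean level was the lowest of the 56 for luminal genes (10.77, against a median of 11.78), T and NK cell genes (4.92, median 5.39), macrophage genes (7.98, median 8.93), fibroblast genes (9.001, median 10.84) and endothelial genes (5.62, median 6.31), and for basal genes it was above the median (9.30 against 8.71). The adipocyte mean of animal 3854 was 5.34 (median 8.51, rank 2 of 56 from the lowest). Its skeletal muscle (6.92, median 9.44) and B and plasma cell (4.525, median 4.93) means also lay below the medians. In the tumour of animal 3289 the T and NK cell mean was 6.05, the third highest. Its macrophage mean was 9.44 (median 8.93, rank 50). The luminal (11.91, rank 43) and fibroblast (10.97, rank 37) means lay above the medians of 11.78 and 10.84. So did those of basal, B and plasma cell and endothelial genes, while adipocyte and skeletal muscle means lay below. The part of these cell types in the members' levels was not tested. Without animal 3854, left out after its values were seen, the median pairwise correlation of the members was 0.704. Animals 5000 and 4966 followed below it, at 8.38 and 8.26. Without animals 3289 and 3572, whose Mki67 levels were farthest from the median, the median pairwise correlation was 0.686. The range of the mean within array set 1 was 7.09 to 8.26, within array set 3 it was 7.67 to 8.53 and within array set 4 it was 7.28 to 8.38, so the 3 array sets overlapped widely.

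Across all probe sets that name a member, 65 of 84 passed the same filter. Of the 27 that passed and were not used, 17 had a correlation with the other members of at least 0.5, with a median of 0.656. Of the 19 that did not pass, 3 reached 0.5 and the median was 0.297. For 15 members there is 1 probe set only.

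To ask which members follow the proliferation level of a tumour, each gene was fitted on the standardised level of Mki67, the gene of the Ki-67 antigen, which marks cycling cells and is not a member. Mki67 ranged from 9.32 (median 10.29) to 11.05, with an SD of 0.29. With higher Mki67, 37 of the 38 members were higher and 0 were lower (limma, Benjamini-Hochberg adjusted p under 0.05 over 12559 genes). Of all genes tested, 11.3% were called higher and 5.22% lower, so the share of members called (97.4%) was far above the background. The median slope of the members was 0.23 log2 units per SD of Mki67, against -0.0012 over all genes. The samples are separate animals of 1 group, and the p-values measure only the spread between them. Since the members were known to move together, the 37 calls are not 37 independent results.

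The steepest slopes were those of Ncapg (0.33 ± 0.03 per SD, SE, limma adjusted p = 2.59e-12), Bub1 (0.32 ± 0.03, 7.60e-13) and Bub1b (0.30 ± 0.02, 2.31e-14). Ttk (0.30) and Cenpe (0.28) followed. By role, all 10 inner kinetochore genes rose, with slopes from 0.07 for Cenpt to 0.27 for Cenpa. Of the outer kinetochore genes 9 of 10 rose, up to 0.28 for Cenpe. All 7 checkpoint genes rose, from 0.10 for Bub3 to 0.32 for Bub1, as did all 5 of the passenger complex and cytokinesis group, from 0.15 for Birc5 to 0.28 for Cdca8. The 6 condensin genes had the narrowest span, from 0.21 for Smc4 to 0.33 for Ncapg.

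The member that did not pass was Ska2, with a slope of 0.06 ± 0.03 (limma adjusted p = 0.193). Against Top2a in place of Mki67, Ska2 had a slope of 0.15 (limma adjusted p = 1.72e-06) and passed. Zwint did the reverse, with 0.06 ± 0.02 on Mki67 (limma adjusted p = 0.0118) and 0.03 on Top2a (0.244). Cenpt (0.07 ± 0.02, limma adjusted p = 0.0367) and Birc5 (0.15 ± 0.05, 0.0433) passed narrowly and did not pass without the tumours of animals 3289 and 3572 (0.04 with adjusted p = 0.305, and 0.08 with 0.331). In array set 1 alone, 34 members rose and 0 fell, against 8.23% of genes called higher and 3.88% lower, and Ska2, Zwint, Cenpm and Cenpq did not pass. With array set as a term, 37 of the 38 rose and 0 fell, against 15.5% and 7.95% of genes, and Birc5 had 0.16 (limma adjusted p = 0.00243).

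**Figure D4:**
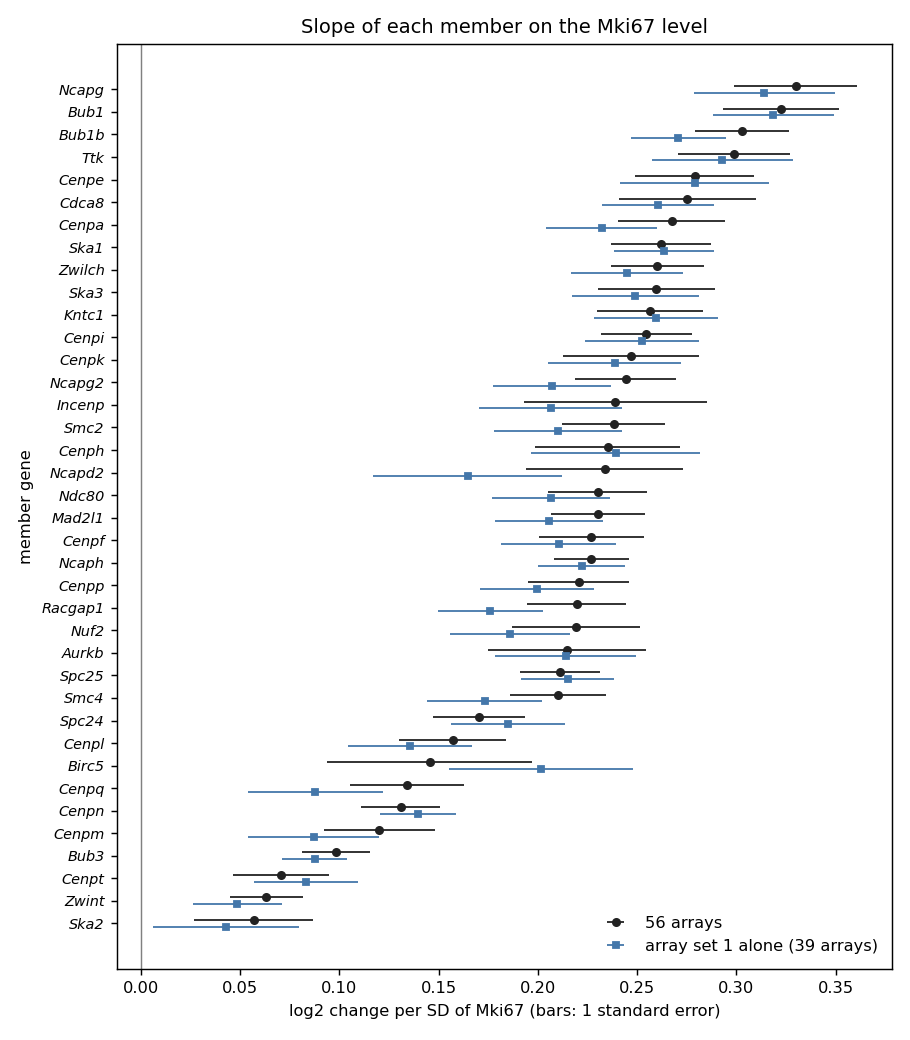
Slope of each member on Mki67 (horizontal axis, log2 units per SD of Mki67), with bars of 1 standard error; black circles use the 56 arrays and blue squares the 39 arrays of array set 1. Slopes run from 0.06 for Ska2 to 0.33 for Ncapg, and every point lies above 0.

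Genes of related lists behaved as follows in the same fit. Of 25 tested genes of other kinetochore, centromere, condensin II and cohesin proteins, 16 rose and 0 fell, with a median slope of 0.08. Sgo2a (0.23), Sgo1 (0.23), which protect centromeric cohesion, Oip5 (0.22) and the kinetochore scaffold Knl1 (0.19) led, while the centromere-binding Cenpb (0.003) and Pmf1, of the MIS12 complex (-0.003), did not pass. Of 34 other mitosis genes 33 rose, led by the spindle motor Kif11 (0.30), and Foxm1 (0.03) did not. Of 30 replication genes 29 rose, led by Gins1 and Mcm5 (0.29 each), and Orc1 (0.05) did not. Of the lists of other cell types none had a gene that rose. Epcam of 6 luminal genes fell (-0.12, limma adjusted p = 0.00728), as did Nkg7 and Cd3e of 5 T and NK cell genes (-0.11 and -0.07) and Col1a1 and Col1a2 of 6 fibroblast genes (-0.19 and -0.16). These T and NK cell and fibroblast calls were not made in array set 1 alone or without animal 3854. In array set 1 alone limma called 0 of the 6 fibroblast genes, with an unadjusted p under 0.05 for 0 and a median slope of -0.03 in place of -0.18, and 0 of the 5 T and NK cell genes, with an unadjusted p under 0.05 for 1 and a median of -0.03 in place of -0.07. Epcam fell there too (-0.11, limma adjusted p = 0.0162), and the basal gene Acta2 fell (-0.23, 0.0461). Without animal 3854 limma called 0 fibroblast and 0 T and NK cell genes, with an unadjusted p under 0.05 for 0 and 3, and Epcam had -0.09 (limma adjusted p = 0.0459), while the same 37 members rose and 0 fell, against 10.5% of genes called higher and 4.3% lower. The 4 basal, 3 B and plasma cell, 6 macrophage, 4 endothelial, 3 adipocyte and 5 skeletal muscle genes tested gave 0 calls by limma, with unadjusted p under 0.05 for 2, 0, 1, 1, 0 and 0 of them.

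To ask whether members follow mitosis genes or S phase genes, both standardised scores, the mean z of 34 other mitosis genes and of 30 replication genes, were entered in 1 fit. The scores correlated at 0.955 over the 56 arrays, so the fit can separate them only for genes that lean clearly one way. On the mitosis score 9 members rose and 0 fell, against 1.84% of all genes called higher and 3.34% lower: Bub1b (0.43 ± 0.05, limma adjusted p = 4.35e-08), Cenpa (0.40 ± 0.05, 1.90e-07), Bub1 (0.32), Ska1 (0.32), Aurkb (0.45 ± 0.10, 0.00637), Racgap1 (0.28), Ska3 (0.22), Cenpf (0.24) and Cenpn (0.15, 0.0499). By limma 0 of the 6 condensin genes passed, with estimates from 0.06 to 0.16 and an unadjusted p under 0.05 for 2. With array set as a term 16 members passed, among them Ncapg and Ncaph, and 0 fell, against 1.86% of genes called higher and 4.14% lower.

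On the replication score only Cenph passed (0.25 ± 0.08, limma adjusted p = 0.0432), against 3.55% of genes called higher, and 0 members fell, against 0.816% of genes. The unadjusted limma p was under 0.05 for 17 members on this score, Bub1b with a negative estimate (-0.10), and for 16 on the mitosis score. Cenpk, Ttk, Kntc1, Ncapg, Ncapg2 and Cenpi lay just above the threshold (limma adjusted p from 0.0535 to 0.0678). The members' median estimate was 0.1485 on the replication and 0.1167 on the mitosis score. A difference between the scores was not tested. With array set as a term no member passed on the replication score, where limma called 3.56% of genes higher and 0.672% lower, and 15 members had an unadjusted p under 0.05. With each array centred on its median 11 members passed, including Mad2l1, Ttk, Zwilch, Ncapg and Smc2, and 0 fell. Of 12496 genes 638 were then called higher and 314 lower, and the share of higher calls among all calls went from 81.3% to 67%. Without animal 3854, 7 members passed (Cenph, Cenpk, Kntc1, Ncapg, Ncapg2, Smc2 and Ttk) and 0 fell, against 5.42% of genes called higher and 1.35% lower.

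The titles allow 1 further comparison, between the 41 animals with lower numbers and the 15 with numbers above 4000. With upper numbers 2 members were higher and 0 lower, against 16.6% of all genes called higher and 5.14% lower, so the members' share (5.26%) lay below the background. Cenpt ranged from 7.43 (median 7.89) to 8.18 in the lower numbers and from 7.85 (median 8.13) to 8.34 in the upper. The groups overlapped, and the difference was 0.25 ± 0.05 (SE, limma adjusted p = 1.32e-04). Aurkb ranged from 6.47 (median 7.47) to 8.06 and from 7.26 (median 7.76) to 8.47, a difference of 0.34 ± 0.10 (limma adjusted p = 0.0117) with wide overlap.

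Number range and array set are partly the same split, since array set 4 holds upper numbers only. With array set as a term limma called 0 members and 0 of 12560 genes, with an unadjusted p under 0.05 for 1 member and 872 genes. Cenpt then had 0.21 ± 0.07 (limma adjusted p = 0.713) and Aurkb 0.17 ± 0.14 (0.817). Within array set 1, where 4 of 39 animals have upper numbers, the values were 0.22 ± 0.09 (limma adjusted p = 0.354) and 0.13 ± 0.16 (0.770), with 0 members and 0 genes called and an unadjusted p under 0.05 for 2 members and 1328 genes. For Cenpt the means of the upper numbers were 8.09, 8.05 and 8.15 in array sets 1, 3 and 4, and those of the lower numbers 7.87 and 7.86 in array sets 1 and 3. For Aurkb the upper means were 7.60, 7.56 and 7.97, and the lower means 7.47 and 7.32 in array sets 1 and 3, so the upper mean was highest in array set 4. With each array centred on its median, Bub3 was also called lower, against 1344 of 12560 genes called lower and 1367 higher. The higher share of all calls went from 76.3% to 50.4%.

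**Figure D5:**
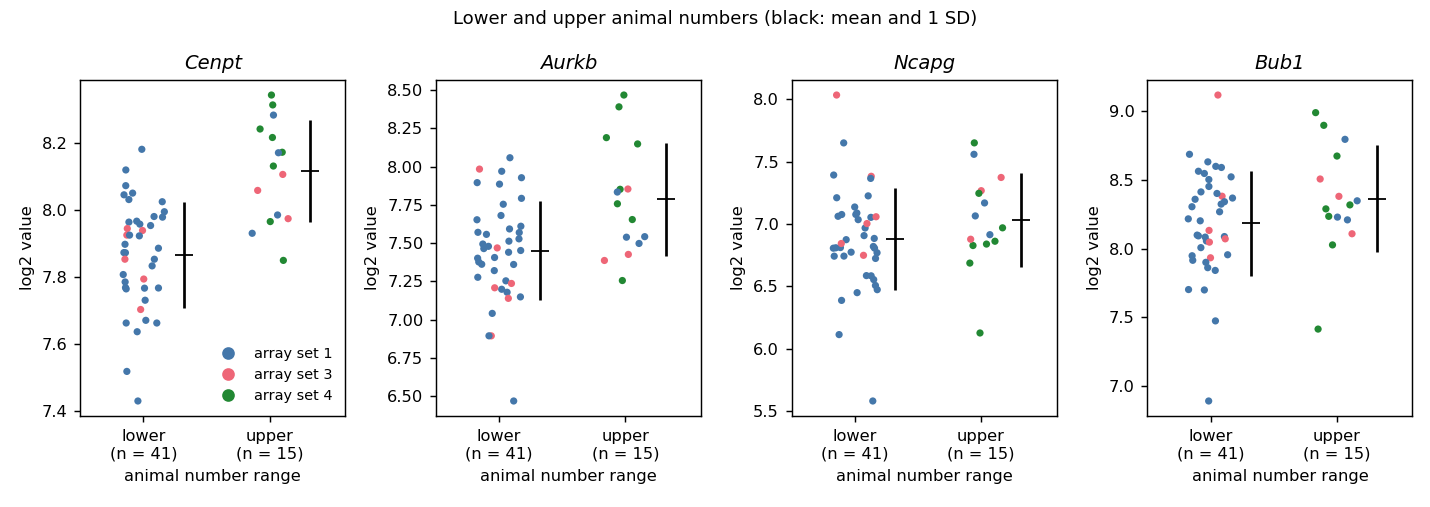
Log2 values of Cenpt, Aurkb, Ncapg and Bub1 in animals with lower (n = 41) and upper (n = 15) numbers, 1 point per array, coloured by array set, with the mean and 1 SD in black. Cenpt and Aurkb are shifted up in the upper numbers with overlap (differences of 0.25 and 0.34), and Ncapg and Bub1, which did not pass, overlap over nearly their whole range.

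Whether the Mki67 slope differed between number ranges was tested as an interaction. limma called 0 members and 0 of 12559 genes, with an unadjusted p under 0.05 for 1 member, Zwint (0.05 per SD in the lower and 0.14 in the upper numbers), and for 393 genes.

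In the 12 arrays with high 18S values the members were lower as a group, as were most genes. Relative to the 56 arrays the median difference was -0.62 log2 units for the members and -0.43 for all genes tested, and 80.7% of genes were lower. Of the members 35 were lower and 3 higher: Cenpn (0.34), Ska2 (0.21) and Cdca8 (0.13). The Cdca8 value depends on the probe set, which was chosen with the 12 arrays included. Over the 56 arrays the one used had a mean of 8.84, and another Cdca8 probe set had 8.91. To fall behind once the 12 are included, that other probe set must lie lower in the 12 than in the 56. So the higher value of Cdca8 is not a finding about the gene. Aurkb (-1.48), Ncapg (-1.32) and Ndc80 (-1.26) had the largest negative differences. Values of the 12 lay wholly below the 56 for 2 members, Zwint (at most 8.67 against at least 9.16) and Ndc80 (at most 5.99 against at least 6.15), which is a smaller share than the 17.3% of all genes. With each array centred on its median the members' median was -0.18. The median of all genes after centring is not given here, so -0.18 has no background beside it. These arrays are set apart by 2434 probe sets that split them exactly from the rest, so the differences are given with no test. In the labels 2 animal numbers have 1 array among the 12 and 1 among the 56, so these animals stand on both sides. Without their arrays among the 56 the median difference was -0.62 for the members and -0.43 for all genes, and 35 members were lower.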

How the data were processed

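Total RNA of each tumour was labelled and hybridised to 1 Affymetrix array, per the labels' protocols. The deposited values are RMA output, per the submitters' processing notes. RMA version, settings, log base and whether arrays were normalised together are not given in the sources used here. The deposited values are read as log2 from their range, 1.68 to 14.57. Their number limits the precision. No 2 arrays held identical values.

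Genes were named from the platform annotation, only from probe sets with 1 gene (34958 of 45101), and by their brightest probe set over all arrays. Tests covered genes whose 95th percentile exceeded the median of all values, 5.42. Array sets came from splits that 20 or more probe sets on 10 or more chromosomes had in common, with Ashman's D over 4.5 and no side under 15% of the arrays. Fits used limma 3.58.1 (lmFit, eBayes) in R 4.3.3 over all genes tested, with Benjamini-Hochberg adjustment and a threshold of 0.05, and descriptions used Python 3.11.15. The script was tested on simulated data. In the fit of 2 scores the genes of both lists were left out of the counts. Alternatives changed the probe set, filter, arrays, scaling, array sets, RNA quality (Gapdh and Actb 3′ minus 5′ differences as covariates), reference gene and number range. Ccnb2 as reference, the number range in array set 1, the second passenger complex probe sets, leaving out animal 3854 and leaving out animals with arrays on both sides of the 18S split were added after seeing the data.

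The members, gene lists and tests were chosen with earlier results of these data known. The rule for named genes takes all members, Mki67, the 10 other genes most like the members' mean z-score, and up to 4 genes with the largest and 2 with the smallest slopes of each list. Some list genes, such as Hjurp, Ccnb1, Chaf1a, Lck and Plin1, had no probe set of their own and were not analysed here, and 1 of the 10 is not reported here. Pairs of partner genes were chosen from known complexes after values were seen.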

Additional observations from a re-analysis of the deposited data

How the results depend on the processing

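The median pairwise correlation of the members was 0.635 to 0.742 under 8 alternatives. In all 13 alternatives of the Mki67 fit, which include Top2a and Ccnb2 as reference in its place, 34 to 37 members rose. With all 68 arrays 35 rose, against 8168 of 12882 genes called higher. In the other alternatives the genes called higher numbered 1028 to 2106. Over 492 slopes of single members in these alternatives, 479 kept their direction and their side of the threshold, 10 no longer passed and 1 newly passed. The 2 that reversed did so with all 68 arrays: Cenpn at -0.053 (limma adjusted p = 0.0956) and Ska2 at -0.044 (0.167). On the mitosis score, 9 members became 14 with all 68 arrays and 16 with array set as a term. Of the 9, only Bub1, Bub1b and Cenpa passed in every alternative. Aurkb and Racgap1 did not pass with all 68 arrays, nor Cenpf, Racgap1 and Ska3 in array set 1 alone. Aurkb, Ska3 and Cenpn did not pass with RNA quality as covariates, nor Ska1 and Cenpf with the mean of all probe sets. Cenpn did not pass with array set as a term. On the replication score, the 1 member called became 0 with the mean of all probe sets, with no filter, with a stricter filter, in array set 1 alone, with array set as a term and with RNA quality as covariates. It became 3 without the 2 farthest arrays (Cenph, Mad2l1 and Ttk), 7 without animal 3854, 11 with centred arrays and 16 higher and 3 lower (Bub1b, Cenpa and Cenpn) with all 68 arrays. For the number range, the 2 higher members became 0 with all 68 arrays, in array set 1 alone and with array set as a term, and 1 (Cenpt) with RNA quality as covariates. Centring gave 1 lower member, Bub3, against 1344 of 12560 genes called lower. It moved the median difference of members in the 12 arrays with high 18S from -0.62 to -0.18. The cause was not tested for any of these.

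Over all genes, calls on the replication score went from 443 higher to 13 with RNA quality as covariates, 158 with the mean of probe sets, 173 with the stricter filter, 6200 with all 68 arrays, 677 without animal 3854 and 638 centred. On the mitosis score they went from 230 to 88, 91, 124, 660 and 386 in that order, and to 384 centred. For Mki67 they went from 1418 to 8168 with all 68 arrays. For the number range they went from 2080 to 348 with all 68 arrays, 1367 centred, 1339 with RNA quality as covariates and 0 with array set as a term or in array set 1 alone. Ccnb1 as reference was not run, since no probe set names it alone. No paired analysis was run. The labels give 1 group, and only 2 animal numbers occur on both sides of the 18S split. The differences within these 2 animals are not given here, and their arrays enter a description with no test. Arrays that share an animal number were averaged in the fits of all 68 arrays. With 1 group and no control tissue, levels have no reference outside these tumours.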

Other observations

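Outside the members, genes that followed the mean z-score of the 38 closely over the 56 arrays included further genes of mitosis and DNA repair. Melk, a kinase of dividing cells, had r = 0.941, Cip2a, an inhibitor of the phosphatase PP2A, 0.938, and Exo1, a DNA repair exonuclease, 0.933. The kinesins Kif2c and Kif11 had 0.930 and 0.923, Arhgap11a 0.928, the spindle proteins Nusap1 and Aspm 0.926 and 0.925, and the cytokinesis gene Ect2 0.918. Within array set 1 these 9 values ran from 0.910 to 0.954. The median over the 12522 other genes tested was -0.0055. Likeness was ranked with no test, and the points share their arrays and normalisation.

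Some unused probe sets of members stepped between array sets more than the genes' other probe sets did. For Cenpe, an unused probe set had means of 4.85, 2.97 and 3.60 in array sets 1, 3 and 4, and the probe set used had 7.50, 7.64 and 7.47. For Smc2, an unused one had 5.72, 4.18 and 4.47, and the probe set used had 9.03, 9.16 and 8.97.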
